A study of Mus musculus with 6 samples.

Results

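The genes described here are those of the ATF4 pathway and the unfolded protein response of the endoplasmic reticulum (ER). They were chosen from a list of 38 mouse gene symbols, all of which were found among the 24376 gene IDs of the deposited tables. Of these, 20 were Atf4 and genes known as its targets, and 18 were sensors, chaperones and degradation factors of the ER. All 38 passed the filter on low counts.

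Polyadenylated RNA was sequenced from blood progenitors enriched from the liver of C57BL/6 mouse embryos at E14.5 and then kept in StemPro-34 medium, 3 days in all. In the shSamd14 group a retrovirus delivered a short hairpin RNA (shRNA) against Samd14 right after isolation, and in the control group it delivered a control shRNA whose target the labels do not name. Each group had 3 libraries, each from 200000 cells negative for Ter119 and CD71, surface proteins of maturing red cells, taken at the end of culture. Both groups were thus infected, cultured and sorted in the same way, and neither describes uninfected cells or the maturing red cells of the cultures. Whether replicates came from separate embryos or cultures is not stated, so the p-values given here rest on the spread of these 6 libraries alone, which may be technical.

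Cells that lack amino acids, heme or folding capacity in the ER phosphorylate the translation factor eIF2alpha, which slows protein synthesis but raises translation of the transcription factor ATF4. ATF4 then switches on genes for amino acid synthesis, amino acid uptake and stress feedback. Unfolded proteins in the ER also activate the sensors IRE1 (gene Ern1), ATF6 and PERK (gene Eif2ak3), and the first pair drive genes for chaperones and for degradation of misfolded proteins. In red cell precursors the heme-regulated kinase HRI (gene Eif2ak1) is the best known route to ATF4. Much of this control acts on translation and protein cleavage, which RNA levels do not show.

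The libraries held 25344092, 23862151 and 26462797 estimated counts in shSamd14 and 20584169, 23294223 and 24069711 in control. Samd14 itself had 41.9, 38.8 and 39.4 CPM (counts scaled to a common library size) in shSamd14, against 82.0, 82.1 and 83.8 CPM in control. With edgeR's quasi-likelihood test, 327 of 12670 genes had a Benjamini-Hochberg adjusted p under 0.05, of which 167 were higher in shSamd14 and 160 lower. The progenitor markers Kit, Cd34, Ptprc, Myb, Gata2, Spi1 and Cd48 were all detected, with a summed level of 610 to 671 TPM (abundance scaled for gene length) in shSamd14 and 623 to 692 TPM in control. Markers of hepatocytes summed to 38.6 to 50.6 TPM in shSamd14 and 42.6 to 84.3 TPM in control, with Serpina1a at 0 in all libraries. Those of macrophages summed to 12.9 to 18.03 TPM in shSamd14 and 13.7 to 20.2 TPM in control, with C1qa at 0 in all libraries. Endothelial markers summed to 6.73 to 9.23 TPM in shSamd14 and 5.88 to 6.93 TPM in control, and markers of mast cells and basophils to 58.5 to 73.3 TPM in shSamd14 and 62.0 to 70.4 TPM in control. Markers of B and plasma cells summed to at most 0.37 TPM in shSamd14 and 0.5 TPM in control. The 5 megakaryocyte markers summed to 323 to 361 TPM in shSamd14 and 243 to 260 TPM in control, and the 7 of maturing red cells to 4619 to 5934 TPM in shSamd14 and 2620 to 4414 TPM in control, none of them at 0. Both sums were higher in each shSamd14 library than in any control library. Their part in the results below was not tested. In RNA from whole populations, fewer cells of a type and less RNA per cell cannot be told apart.

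The 2 arms of the list also differ in promoter sequence, which was not a criterion for membership, although some of these genes became known as targets through such elements. ATF4 binds, with C/EBP partners, elements with the core TGATGNAA, and the ER stress response element bound by ATF6 and NF-Y reads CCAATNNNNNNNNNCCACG. RefSeq promoters (GRCm38.p6, 250 bases before to 50 after the start of the gene) were at hand for 33 of the 38 members (not for Aldh1l2, Slc7a5, Hyou1, Atf6 and Manf), and both strands were searched. The ER stress response element occurred in 6 of 15 members of the ER arm and in 0 of 18 members of the ATF4 arm. It occurred in 0.137% of the 27025 genes with a promoter and in 0.154% of tested genes with a promoter. The following stretches, with the fixed letters of the element in capitals, are shown 5′ to 3′ in the direction of the gene, since these chaperone genes share one well-defined element.
Hspa5, chr2:34772015-34772053, plus strand: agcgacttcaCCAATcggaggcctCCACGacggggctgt
Hsp90b1, chr10:86705628-86705666, minus strand: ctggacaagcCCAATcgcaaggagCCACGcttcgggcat
Canx, chr11:50325790-50325828, minus strand: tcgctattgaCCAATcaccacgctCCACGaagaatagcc
Pdia6, chr12:17266481-17266519, plus strand: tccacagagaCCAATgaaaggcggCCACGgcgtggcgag
Calr, chr8:84847065-84847103, minus strand: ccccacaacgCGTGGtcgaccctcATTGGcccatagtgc
Creld2, chr15:88819510-88819548, plus strand: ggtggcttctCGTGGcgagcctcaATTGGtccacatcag

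In Calr and Creld2 the element lay on the opposite strand and is therefore printed as its reverse complement. Hsp90b1 held a second copy. A shorter form of the element, ATTGG and CCACG 1 base apart, was found in Herpud1. It occurred in 0.0444% of all promoters and in 0.082% of those of tested genes. The core TGATGNAA occurred in 4.51% of all promoters and in 2.83% of those of tested genes. It occurred in 6 of 18 members of the ATF4 arm and in 1 of 15 of the ER arm, again Herpud1. These 6 are shown because 4 of them, Nupr1, Chac1, Trib3 and Slc7a11, are among the members with the least certain fold changes below. The core or its reverse complement is in capitals. Slc7a11 also held a further core on the opposite strand, which is not printed.
Chac1, chr2:119351039-119351066, plus strand: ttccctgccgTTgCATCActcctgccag
Trib3, chr2:152344029-152344056, minus strand: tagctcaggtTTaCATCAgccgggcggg
Slc7a11, chr3:50443662-50443689, minus strand: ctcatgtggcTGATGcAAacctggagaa
Asns, chr6:7693215-7693242, minus strand: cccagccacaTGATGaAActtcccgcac
Nupr1, chr7:126625563-126625590, minus strand: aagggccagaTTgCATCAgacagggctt
Vldlr, chr19:27216810-27216837, plus strand: gcagcaatagTTgCATCAgcgctcctag

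A match describes letters in this window and is not evidence of binding in these cells. The promoter of Atf5 in this window held neither element.

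The members were well expressed in these progenitors. Per length, 36 of 38 had a mean level of at least 1 TPM over the 6 libraries, 31 of at least 10 TPM and 13 of at least 100 TPM. Their median was 53.9 TPM, against 17.4 TPM over all tested genes. The lectin chaperone gene Calr was highest at 705 TPM, followed by the chaperone genes Hsp90b1 at 494 TPM and Hspa5, which encodes BiP, at 440 TPM. Asns, the asparagine synthetase gene, led the ATF4 arm with 397 TPM, above Atf4 itself at 208 TPM. The lowest were the mitochondrial folate enzyme gene Aldh1l2 at 0.268 TPM, the lipoprotein receptor gene Vldlr at 0.83 TPM and Chac1, which encodes a glutathione-degrading enzyme, at 1.52 TPM. Aldh1l2 shares 1056 of 7503 exon bases with D10Wsu102e on the opposite strand, a gene at 41.5 TPM, so its level is uncertain.

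Of the 38 members, 1 passed an adjusted p of 0.05, against 2.58% of all tested genes. It was Atf5, a transcription factor gene of the ATF4 family that is itself an ATF4 target, and it was lower in shSamd14, as were 1.26% of all tested genes. In the other direction it was 0 members, against 1.32%. The 38 include 6 with an unadjusted p under 0.05, or 15.8%, against 15% of all tested genes, and 4 of the 38 had such a p and were lower in shSamd14, as were 7.92% of all tested genes. In 7 members, or 18.4%, the 3 libraries of one group lay wholly above or below those of the other, against 20.7% of all tested genes; 5 lay below (all tested genes 10.2%) and 2 above (10.5%). Thus the shares of members that differed lay near those of the whole table. No member rose by edgeR: 2 had an unadjusted p under 0.05 and a higher level in shSamd14, and DESeq2 and limma-voom also called 0 higher.

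**Figure D1:**
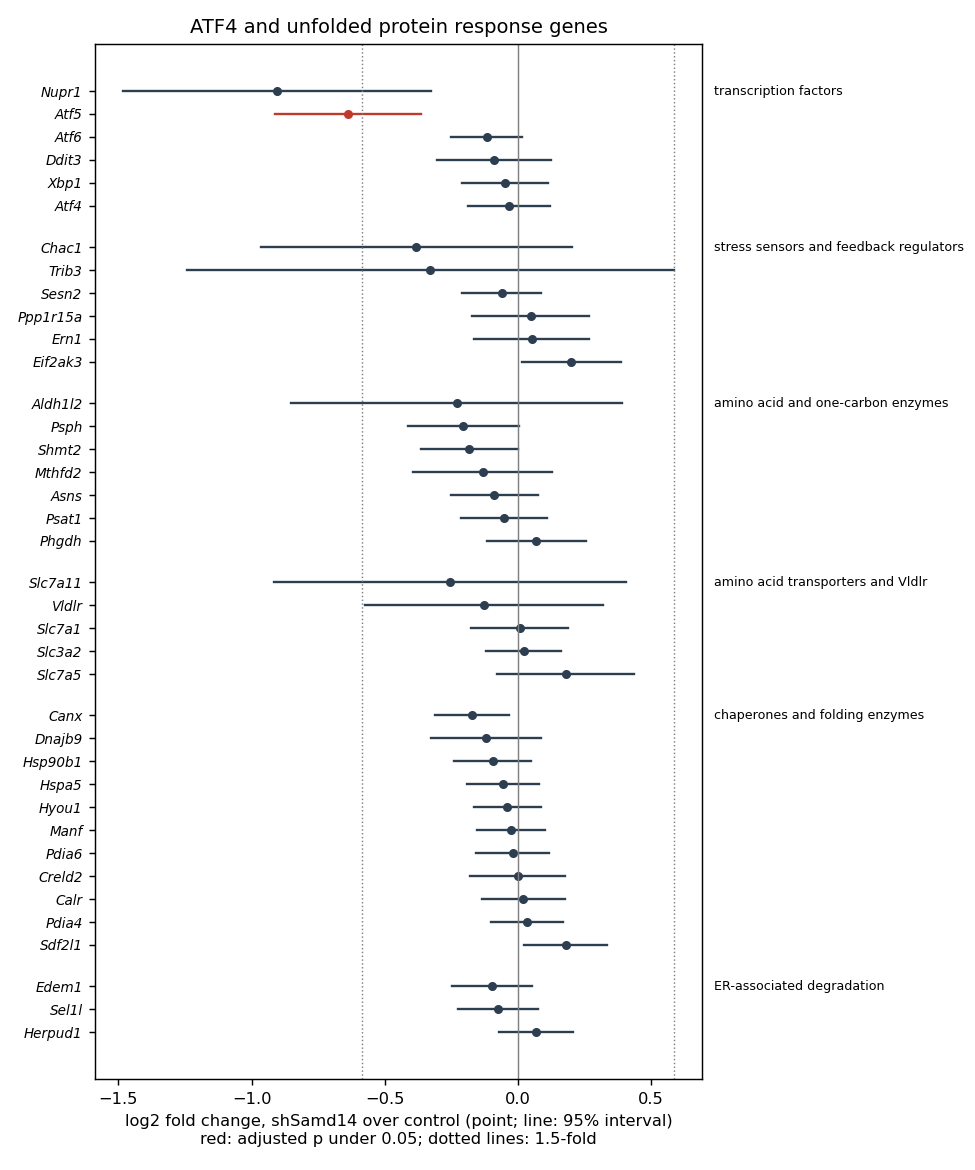
Log2 fold change of each of the 38 members, shSamd14 over control (horizontal axis), by role, with 95% intervals as lines. Atf5, in red, is the 1 member with an adjusted p under 0.05, and 32 intervals lie inside the dotted lines at 1.5-fold.

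The size of difference that the data allow can be read from the intervals. For 32 of 38 members the 95% interval of the fold change, taken gene by gene, lay within 1.5-fold in both directions, including all 18 of the ER arm. The other 6, all of the ATF4 arm, were Atf5, Nupr1, Chac1, Trib3, Aldh1l2 and Slc7a11. Of all tested genes 9856 of 12670 had such an interval. A missed threshold does not show that a gene did not differ. For the ER arm each interval, taken singly and unadjusted, lay within 1.5-fold. These intervals rest on the spread of the 6 libraries alone and do not bound the arm jointly.

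Among the transcription factors, Atf5 (chromosome 7, 44812256 to 44816658, minus strand, mm10) had 13.7, 10.9 and 9.97 CPM in shSamd14, against 18.5, 15.5 and 19.7 CPM in control. All 3 shSamd14 libraries lay below all 3 control libraries. The means were 11.5 ± 1.95 CPM in shSamd14 and 17.9 ± 2.15 CPM in control (SD, n = 3 each), a fold of 0.643. Its log2 fold change of -0.64 (SE 0.13) passed, adjusted p = 0.0167 by edgeR's quasi-likelihood test and Benjamini-Hochberg adjustment. Atf5 missed the threshold without control replicate 1 (adjusted p = 0.0808), control replicate 3 (0.0576) or shSamd14 replicate 2 (0.104), with log2 fold changes of -0.62, -0.57 and -0.60. It shares 82 of its 1993 annotated exon bases with Il4i1 on the opposite strand, a gene at 0.583 TPM.

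Nupr1, which encodes a small stress-induced regulator of transcription, had 0.998, 1.01 and 0.519 CPM in shSamd14, against 1.59, 1.44 and 1.66 CPM in control. Its groups did not overlap either, but at this low level the log2 fold change of -0.91 (SE 0.27) missed the threshold (adjusted p = 0.106 by edgeR). It also missed it in all 6 fits with 1 library left out.

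Atf4 had 227, 215 and 184 CPM in shSamd14, against 213, 211 and 217 CPM in control. The groups overlapped, and the log2 fold change was -0.03 (SE 0.07, adjusted p = 0.87 by edgeR), with a sign that turned to 0.04 without shSamd14 replicate 3. The control libraries of Atf4 lay close together, and shSamd14 replicate 3 was the lowest of all. Ddit3, which encodes the pro-death factor CHOP, had 12.9, 12.9 and 11.4 CPM in shSamd14 and 12.9, 12.7 and 13.9 CPM in control, a log2 fold change of -0.09 (SE 0.10). Ddit3 shares 68 of 1713 exon bases with Mars on the opposite strand.

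Xbp1, whose transcript IRE1 splices into the active form, had 65.9, 73.3 and 77.0 CPM in shSamd14 and 73.0, 69.7 and 80.8 CPM in control. The gene counts do not tell its spliced form from the unspliced one. Atf6, the sensor that is cut in the Golgi to release a transcription factor, had 62.4, 61.6 and 64.7 CPM in shSamd14, against 71.9, 65.5 and 67.6 CPM in control. All shSamd14 libraries were below all control libraries for Atf6, at -0.12 on the log2 scale (SE 0.06), which missed the threshold (adjusted p = 0.412 by edgeR). All 6 transcription factor genes had a negative log2 fold change, against 48.4% of all tested genes.

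**Figure D2:**
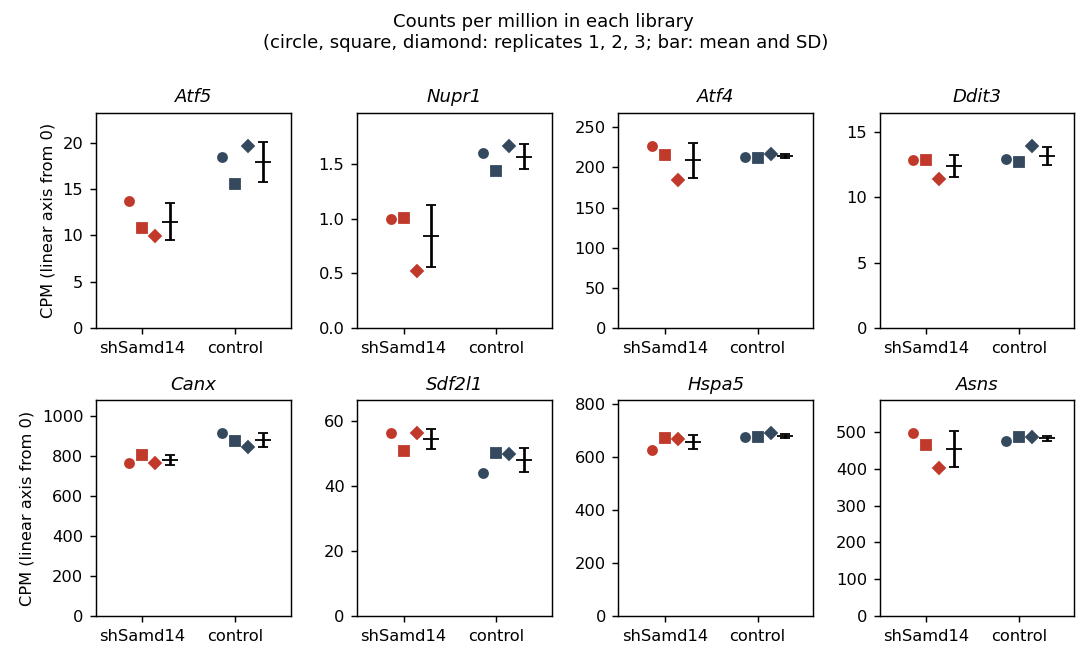
CPM of 8 members in each library on axes from 0, shSamd14 left of control, with the mean and SD of 3 libraries beside the points. Groups are apart for Atf5, Nupr1, Canx, Sdf2l1 and, narrowly, Hspa5, and overlap for Atf4, Ddit3 and Asns.

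Of the sensors and feedback regulators 0 of 6 passed, and 1 had an unadjusted p under 0.05 by edgeR, with 0 called by DESeq2 or limma-voom. Eif2ak3, the gene for PERK, had 24.4, 24.7 and 27.3 CPM in shSamd14, against 23.9, 20.2 and 22.4 CPM in control. Its shSamd14 libraries were all above its control libraries, by 0.20 on the log2 scale (SE 0.09, adjusted p = 0.284 by edgeR). Ern1 had a log2 fold change of 0.05 (SE 0.10).

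Chac1 had 1.84, 1.17 and 0.815 CPM in shSamd14 and 1.64, 1.79 and 1.54 CPM in control. Trib3, a pseudokinase that restrains ATF4 and CHOP, had 20.2, 12.7 and 8.22 CPM in shSamd14 and 17.97, 15.2 and 18.4 CPM in control. Trib3 was singled out after its values were seen. In both genes the shSamd14 libraries spread more widely than the control libraries, and the log2 fold changes of -0.38 (SE 0.27) for Chac1 and -0.33 (SE 0.35) for Trib3 had wide errors. Sesn2, which encodes an inhibitor of mTOR complex 1 that senses leucine, had 70.9, 68.6 and 75.5 CPM in shSamd14 and 70.8, 72.8 and 80.8 CPM in control. Ppp1r15a, whose product GADD34 reverses eIF2alpha phosphorylation, had 78.8, 72.9 and 81.2 CPM in shSamd14 and 73.4, 64.3 and 87.6 CPM in control. The groups overlapped for Sesn2 and Ppp1r15a.

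Of the 7 enzymes of amino acid and one-carbon metabolism 0 passed. Levels within this role ran from 0.268 TPM for Aldh1l2 to 397 TPM for Asns. By edgeR 1 had an unadjusted p under 0.05, and DESeq2 and limma-voom called 0. Shmt2, the mitochondrial serine hydroxymethyltransferase gene, had 357, 313 and 272 CPM in shSamd14, against 359, 365 and 346 CPM in control (log2 fold change -0.18, SE 0.08, adjusted p = 0.33 by edgeR). Psph, the last enzyme of serine synthesis, had 49.95, 45.3 and 37.6 CPM in shSamd14, against 46.9, 52.6 and 53.4 CPM in control (log2 fold change -0.21, SE 0.10). Psph shares 452 of 4329 exon bases with Cct6a on the opposite strand, a gene at 448 TPM, so its level is uncertain.

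Asns had 497, 465 and 402 CPM in shSamd14 and 475, 488 and 488 CPM in control, with a log2 fold change of -0.09 (SE 0.08). In Shmt2, Psph and Asns alike shSamd14 replicate 3 was the lowest library, while shSamd14 replicate 1 lay within the control range or beside it. The serine pathway genes Phgdh and Psat1 and the folate enzyme genes Mthfd2 and Aldh1l2 had log2 fold changes of 0.07, -0.05, -0.13 and -0.23.

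For amino acid uptake, 0 of 5 members passed and 0 had an unadjusted p under 0.05 by edgeR, while DESeq2 and limma-voom also called 0. Slc7a5, the light chain of the leucine transporter LAT1, had 256, 231 and 194 CPM in shSamd14 and 213, 214 and 175 CPM in control (log2 fold change 0.18, SE 0.11). Its heavy chain Slc3a2 had 212, 198 and 183 CPM in shSamd14 and 205, 192 and 188 CPM in control. Slc7a11, the cystine transporter chain that pairs with the same heavy chain, had 13.1, 10.3 and 6.89 CPM in shSamd14 and 15.3, 11.1 and 9.82 CPM in control. Per length, Slc3a2 averaged 128 TPM, close to Slc7a5 at 101 TPM, whereas Slc7a11 averaged 1.98 TPM. Vldlr had 2.04, 3.06 and 2.26 CPM in shSamd14 and 3.24, 2.48 and 2.33 CPM in control, and the arginine transporter gene Slc7a1 had a log2 fold change of 0.0057 (SE 0.08).

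ER chaperones and folding enzymes differed little between groups: 0 of 11 passed, and 2 had an unadjusted p under 0.05 by edgeR, with 0 called by DESeq2 or limma-voom. Canx, the membrane-bound lectin chaperone gene, had 765, 807 and 765 CPM in shSamd14, against 914, 877 and 845 CPM in control. Every shSamd14 library was below every control library, by -0.17 on the log2 scale (SE 0.07, adjusted p = 0.207 by edgeR). Sdf2l1, an ER cochaperone gene, had 56.3, 50.9 and 56.4 CPM in shSamd14, against 44.0, 50.3 and 50.1 CPM in control. It lay the other way, all shSamd14 libraries being above all control libraries, by 0.18 on the log2 scale (SE 0.07, adjusted p = 0.256 by edgeR).

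Hspa5 had 625, 673 and 668 CPM in shSamd14, against 676, 677 and 690 CPM in control. The groups were apart by a narrow margin, with a log2 fold change of -0.06 (SE 0.06). Hsp90b1, the gene for GRP94, had 751, 848 and 818 CPM in shSamd14 and 874, 861 and 847 CPM in control, so that 1 shSamd14 library overlapped the control range. Calr had 837, 928 and 993 CPM in shSamd14 and 880, 920 and 920 CPM in control. The remaining folding genes Dnajb9, Hyou1, Pdia4, Pdia6, Creld2 and Manf had log2 fold changes between -0.12 for Dnajb9 and 0.03 for Pdia4.

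Genes of ER-associated degradation, 0 of 3 past the threshold and 0 with an unadjusted p under 0.05 by edgeR, were as close. Edem1, which passes misfolded glycoproteins on for degradation, had 106, 115 and 126 CPM in shSamd14 and 131, 118 and 122 CPM in control. Sel1l, an adaptor of the HRD1 ubiquitin ligase, had 95.2, 105 and 110 CPM in shSamd14 and 118, 105 and 105 CPM in control. Herpud1, a component of the same complex, had 46.9, 43.0 and 45.8 CPM in shSamd14 and 42.6, 44.0 and 43.0 CPM in control. In each the groups overlapped, and DESeq2 and limma-voom called 0.

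The clearest pattern lay between libraries of the shSamd14 group. Of the 20 members of the ATF4 arm, 14 had their lowest level of all 6 libraries in shSamd14 replicate 3, or 70%, against 20.3% of all tested genes. Among them were Atf4, Atf5, Ddit3, Trib3, Chac1, Asns, Psat1, Psph, Shmt2 and Mthfd2. Of the 18 members of the ER arm, by contrast, 0 were lowest in that library. Of these 18, 12 or 66.7% were lowest in shSamd14 replicate 1, against 15.7% of all tested genes. The next counts are again of the 20 members of the ATF4 arm. Within the shSamd14 group alone, replicate 3 was the lowest library for 17 of the 20, or 85%, against 37.1% of all tested genes. Within the control group, replicate 3 was lowest for 10 of the 20, or 50%, against 35.4%. These counts are descriptions, made after the values were seen, and no test was applied.

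Each library's median over a set, of the log2 ratio of CPM to the control mean (with 0.1 CPM added), gives the size of this spread. For the ATF4 arm it was 0.06, -0.08 and -0.25 in the 3 shSamd14 libraries, against 0.01, -0.0018 and -0.04 in control. For the ER arm it was -0.12, -0.02 and 0.03 in shSamd14, against -0.02, 0.0024 and 0.0034 in control. The amino acid and one-carbon enzymes had the largest drop of the 6 roles in shSamd14 replicate 3, to -0.39, and all 7 were lowest there among the shSamd14 libraries.

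**Figure D3:**
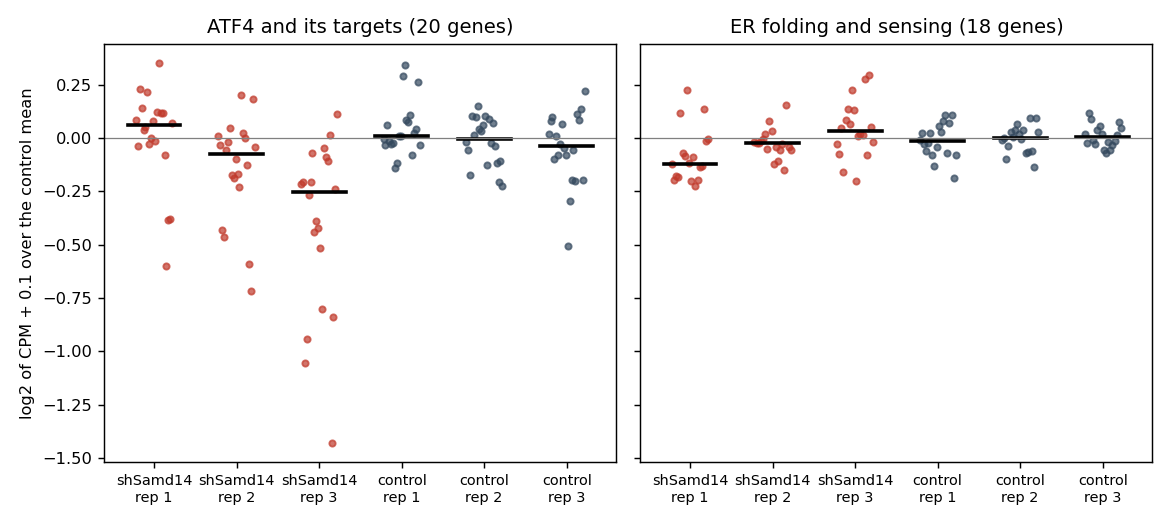
Log2 ratio of each member's CPM (plus 0.1) to its control mean in every library, with each library's median as a black bar, shSamd14 left of control. The ATF4 arm (left) is lowest in shSamd14 replicate 3 at a median of -0.25, and the ER arm (right) in shSamd14 replicate 1 at -0.12.

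The summed level of the ATF4 arm was 1996, 1896 and 1713 TPM in the shSamd14 libraries, against 1999, 1951 and 1864 TPM in control. That of the ER arm was 2633, 2901 and 3050 TPM in shSamd14, against 3003, 2885 and 2884 TPM in control. In each arm the shSamd14 libraries thus spread more than the control libraries, and shSamd14 replicate 3 had the lowest sum of the ATF4 arm and the highest of the ER arm.

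Of the 6 ATF4 arm members with the core TGATGNAA, 5 were lowest in shSamd14 replicate 3, all but Vldlr, beside 14 of 20 in the whole arm. Of the 6 members with the ER stress response element, 5 were lowest in shSamd14 replicate 1, all but Creld2, beside 12 of 18 in the whole arm. Whether members with an element differ in this from those without was not tested. Herpud1, the gene that held both kinds of element, was lowest in control replicate 1.

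Further genes of each pathway, which are not among the 38, were listed to see whether the spread went beyond the members. These lists were chosen with earlier results of these data known, so they are no independent check. Of 40 tested other ATF4 targets, among them genes of aminoacyl-tRNA synthetases, 27 or 67.5% were lowest in shSamd14 replicate 3, with library medians of the same ratio of 0.03, -0.08 and -0.19 in shSamd14 and 0.03, -0.0048 and -0.06 in control. Of 50 tested other ER folding and quality control genes, 17 or 34% were lowest in shSamd14 replicate 1, against 15.7% of all tested genes. In shSamd14 replicate 3 it was 11 or 22%, near the 20.3% of all tested genes. The library medians of these 50 genes were -0.07, -0.04 and -0.02 in shSamd14 and -0.00045, -0.01 and 0.02 in control. Within the control group alone, replicate 3 was the lowest library for 23 of the 40 other ATF4 targets, or 57.5%. Within the shSamd14 group alone, replicate 3 was lowest for 28 of the 40, or 70%. The 7 listed neutrophil markers, Elane, Mpo, Prtn3, Ctsg, S100a8, S100a9 and Ltf, were all detected. They summed to 7739, 8170 and 11477 TPM in shSamd14 replicates 1, 2 and 3. In control replicates 1, 2 and 3 they summed to 7398, 6537 and 11102 TPM. Their sum was thus highest in replicate 3 of each group. Its part in the spread of the ATF4 targets was not tested.

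This spread bears on the group comparison. The median log2 fold change of the ATF4 arm was -0.11 and that of the ER arm -0.03, against 0.006 over all tested genes. Without shSamd14 replicate 3 the median of the ATF4 arm was -0.04 and that of the ER arm -0.07. Without shSamd14 replicate 1 these medians were -0.15 and -0.014, and without shSamd14 replicate 2 they were -0.14 and -0.03. Over all members 27 of 38 had a negative log2 fold change, or 71.1%, against 48.4% of all tested genes. In both arms the library medians of the 3 shSamd14 libraries differed from each other by more than the median log2 fold change between the groups.

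Beside Eif2ak3, 8 genes for the other eIF2alpha kinases, eIF2alpha itself and its phosphatase were listed, of which 0 passed and 1 had an unadjusted p under 0.05 by edgeR, with 0 called by DESeq2 or limma-voom. In 5 of the 8 the groups did not overlap, or 62.5%, against 20.7% of all tested genes; 2 of the 5 lay above and 3 below. Their median log2 fold change was -0.0020. Eif2ak1, the gene for HRI, had 154, 158 and 161 CPM in shSamd14, against 146, 138 and 146 CPM in control. All shSamd14 libraries lay above the control libraries, by 0.14 on the log2 scale (SE 0.06), which missed the threshold (adjusted p = 0.268 by edgeR). Eif2ak2, the gene for the RNA-activated kinase PKR, had 47.5, 51.0 and 52.2 CPM in shSamd14, against 55.9, 55.4 and 52.7 CPM in control, a log2 fold change of -0.12 (SE 0.07). The kinase gene Eif2ak4 (GCN2) had -0.10 and Eif2s1, the gene for eIF2alpha, -0.02 on the same scale.

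Of the 40 tested other ATF4 targets 1 rose and 1 fell, and of the 50 tested other ER genes 1 rose and 3 fell, or 5% and 8% of each list, against 2.58% of all tested genes. Both lists were chosen with earlier results of these data known, so their shares cannot be weighed against that of all tested genes. At such small counts this is a description only. Fgf21 and Derl3, also listed, did not pass the filter on low counts. A negative log2 fold change was seen in 31 of the 40 (median -0.07) and in 32 of the 50 (median -0.04). Atg5, needed to form autophagosomes, rose to 52.4, 52.1 and 52.2 CPM in shSamd14, against 40.1, 40.1 and 42.7 CPM in control, 1.27-fold (log2 fold change 0.35, SE 0.06, adjusted p = 0.0091 by edgeR). Tmbim6, an ER membrane protein gene also called Bax inhibitor 1, rose to 302, 297 and 314 CPM in shSamd14, against 231, 231 and 256 CPM in control, 1.27-fold (adjusted p = 0.00939 by edgeR). Both groups were tight and well apart for Atg5.

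Ero1l, the oxidase that recharges protein disulfide isomerase, fell to 408, 436 and 385 CPM in shSamd14, against 602, 493 and 562 CPM in control, a fold of 0.742 (log2 fold change -0.43, SE 0.08, adjusted p = 0.00939 by edgeR). Mbtps2, the site-2 protease that releases ATF6 and the sterol factor SREBP from the membrane, fell to 35.9, 38.5 and 35.6 CPM in shSamd14, against 48.9, 46.4 and 42.5 CPM in control (adjusted p = 0.027 by edgeR). Erp29, an ER protein of the disulfide isomerase family, fell to 158, 156 and 158 CPM in shSamd14, against 175, 190 and 194 CPM in control (adjusted p = 0.0415 by edgeR). Ddit4, an mTOR complex 1 inhibitor that ATF4 and hypoxia both induce, fell to 112, 94.2 and 96.5 CPM in shSamd14, against 151, 118 and 144 CPM in control (adjusted p = 0.0408 by edgeR).

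In fits with 1 library left out, Atg5 and Ero1l passed in 6 of 6 and Tmbim6 missed the threshold without control replicate 1 (adjusted p = 0.0523 by edgeR). The others passed less steadily: Mbtps2 and Erp29 missed it in 5 of 6 and Ddit4 in 4 of 6. Mbtps2 passed only without control replicate 3, Erp29 only without control replicate 1, and Ddit4 only without control replicate 2 or shSamd14 replicate 1. Erp29 shares 2210 of 9060 annotated exon bases with Naa25 on the opposite strand. Mbtps2 shares 2867 of 10105 with Yy2 on the same strand, so both levels are uncertain. Whether the transcripts counted here hold the shared bases was not tested. Among the 9 other alternatives, Atg5, Tmbim6 and Ero1l passed in all. Erp29 missed the threshold in 3, limma-voom (adjusted p = 0.0605) and limma on log2(TPM + 1) (0.0671) and log2(TPM + 0.1) (0.0713). Ddit4 also missed it in 3, with upper quartile factors (adjusted p = 0.0556 by edgeR) and on both TPM scales by limma (0.0737 and 0.0773). Mbtps2 missed it on both TPM scales by limma (adjusted p = 0.131 in each).

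**Figure D4:**
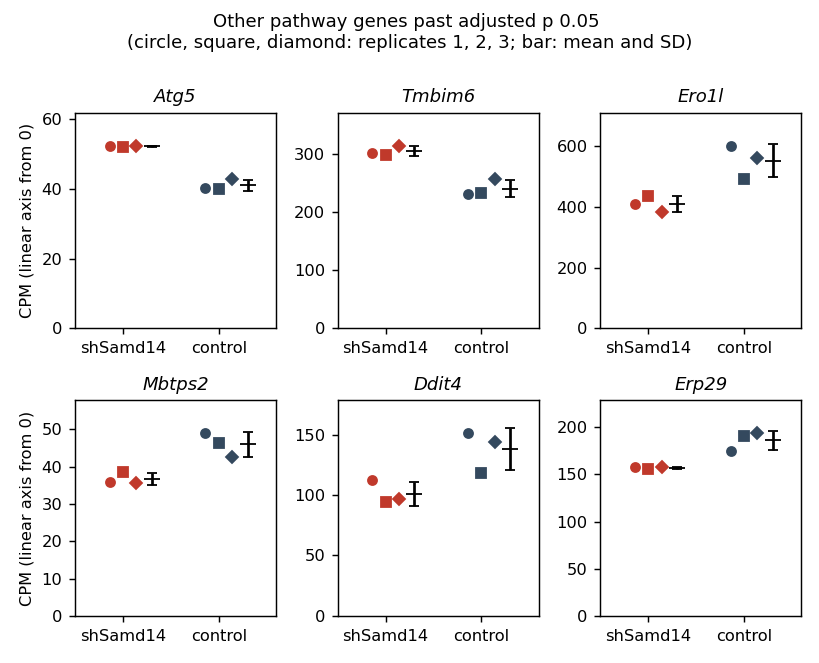
CPM in each library, on axes from 0, of the 6 further pathway genes with an adjusted p under 0.05, shSamd14 left of control, with mean and SD of 3 libraries. Atg5 and Tmbim6 are higher in shSamd14 and the other 4 lower, with no overlap of the groups in any panel.

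Short words in 3′ untranslated regions (UTRs) were looked up for these genes. They are 7-base words that an earlier search of the same libraries had tied to genes that rose (CTGATTA and also TGATTAA) or fell (CAAGTGT and also AAGTGTA), so they are no independent measure. The words of each pair overlap, so a single stretch can hold both, and holding both need not mean separate matches. Of the 2 genes that rose here, Atg5 and Tmbim6, both held CTGATTA and TGATTAA. Among the genes that fell, Atf5 and Ero1l held CAAGTGT and Erp29 held CAAGTGT and AAGTGTA, whereas Mbtps2 and Ddit4 held none of the 4 words. Each search used the longest annotated UTR, of 4249 bases for Erp29. Whether the transcripts counted here hold that UTR was not tested. Of tested genes that did not pass, 14.3% held CTGATTA or TGATTAA and 22.2% held CAAGTGT or AAGTGTA. Over the 38 members these shares were 15.8% and 31.6%. The shares were not matched for UTR length. The part of these words in the differences was not tested.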

How the data were processed

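Expected counts and TPM per Ensembl gene were deposited, per the file headers, in an RSEM table for each library. RSEM 1.2.15, Bowtie 1.0.1, CASAVA 1.8.2 and mm10 are named without settings, per the submitters' processing notes. The sources used here name no annotation release and no strand setting. An expected count shares a read that maps to several genes between them. TPM, as deposited, is scaled by gene length and to a common total per library.

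Symbols came from GENCODE M21, which named 23580 of 24376 IDs. Expected counts were rounded and tested in edgeR 4.0.16 (R 4.3.3), with filterByExpr (minimum count 10, total 15), TMM factors (0.986 to 1.02) and a two-sided quasi-likelihood test of shSamd14 over control with 3 libraries each, adjusted by Benjamini-Hochberg over 12670 genes. CPM are TMM-scaled; 3 counts are 0.111 to 0.145 CPM, so genes near 1 CPM rest on few reads. Intervals are 95% and unadjusted. No library was a duplicate (chi-square per gene between replicates 5.76 to 12.3). For each gene the longest annotated 3′ UTR was used, if it had at least 50 bases.

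Values in every library are given for Atf4, Ddit3, Xbp1, Hspa5, Asns, each member past the threshold and, per role, the 3 of smallest p and the most abundant; of other pathway genes, those past the threshold or the 2 of smallest p. Members and lists were chosen with earlier results of these data known. Alternatives were other size factors, other filters, a replicate block, DESeq2 1.42.0, limma 3.58.1 and leaving out each library.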

Additional observations from a re-analysis of the deposited data

How the results depend on the processing

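Atf5 was the 1 member lower in shSamd14 under all alternatives except these. With a replicate block it was 2 members, Atf5 and Nupr1 (adjusted p = 0.0351 by edgeR), and with 1 library left out it was 0 or 1. No alternative called a member higher. The count over all genes was 682 with the replicate block, 136 with limma on log2(TPM + 1), 130 on log2(TPM + 0.1), and 128 without shSamd14 replicate 2 to 283 without control replicate 3; it was 153 without control replicate 1. Whether replicate numbers pair the libraries was not settled. Same-numbered libraries deviated from their group means with correlations of -0.07, 0.15 and 0.27, and not every library correlated best with its own number. With 3 libraries per group, such correlations cannot exclude a batch shared by same-numbered libraries. Median log2 fold changes with 1 library left out ran from -0.15 to -0.04 for the ATF4 arm and from -0.07 to -0.0087 for the ER arm.

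The sign of 13 members that did not pass turned in some fits. For Creld2 (-0.0012 with all libraries) it was 0.0013 with no filter, 0.000435 with a filter of 1 CPM, 0.0029 with the replicate block, 0.0018 in limma-voom, 0.0162 on log2(TPM + 1) and 0.0166 on log2(TPM + 0.1). With 1 library left out the ranges were -0.0905 to 0.0471 for Creld2, -0.106 to 0.0438 for Atf4, -0.0433 to 0.0748 for Calr, -0.0840 to 0.126 for Ern1, -0.0271 to 0.0718 for Pdia4, -0.0699 to 0.0017 for Pdia6, -0.0194 to 0.150 for Phgdh, -0.0531 to 0.168 for Ppp1r15a, -0.119 to 0.0141 for Psat1, -0.0390 to 0.0690 for Slc3a2, -0.0914 to 0.0583 for Slc7a1, -0.315 to 0.0186 for Vldlr and -0.103 to 0.0082 for Xbp1. DESeq2 gave no adjusted p for Nupr1, Chac1 and Aldh1l2. The causes were not tested. Nupr1, Chac1, Aldh1l2 and Vldlr were each below 4 CPM, and the part of depth in their wide errors was not tested.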
